A study of Mus musculus with 30 samples.

Results

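The circadian clock passes its rhythm on to other genes through a small set of output factors. Dbp, Tef, Hlf, Nfil3, Ciart, Usp2, Bhlhe40 and Bhlhe41 were taken by gene symbol from a table of estimated counts for 36558 mouse genes. All 8 were found, and all 8 passed the filter on low counts in both tissues studied.

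RNA was sequenced from 2 tissues of male C57BL/6J mice, heart and white fat (white adipose tissue). The mice had received AAV8-GFP, an adeno-associated virus vector for green fluorescent protein that served as the control, or AAV8-F11, the same kind of vector for F11, the gene of coagulation factor XI. Every mouse, controls included, received HFD, a diet rich in fat, together with l-NAME, which blocks nitric oxide synthases, over 7 weeks, and tissues were taken when the mice were 15 weeks old. The table held 6 heart libraries with GFP, 7 heart libraries with F11, and 8 adipose libraries with each vector, so each comparison below is between vectors on 1 diet, or between tissues. The labels name no promoter for either vector and no time of day for tissue collection. They do not say whether libraries came from separate mice, and all p-values then refer to the spread among the libraries at hand.

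As background, the loop at the centre of the clock is driven by ARNTL (also called BMAL1) paired with CLOCK or NPAS2, which binds E-boxes and switches on the period and cryptochrome genes, whose proteins then repress it. DBP, TEF and HLF are the PAR bZIP factors, activators that bind D-boxes, and NFIL3 is a repressor that binds the same D-boxes and typically peaks when Dbp is low. CIART, BHLHE40 and BHLHE41 repress the ARNTL complex, and USP2 is a deubiquitinase whose transcript follows the clock in many tissues.

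The promoters are shown because the E-box is a sequence through which the loop acts on its outputs, and because they carry it unequally. In the RefSeq promoter table for GRCm38.p6, which covers 250 bases before to 50 bases after a start site, 7 of the 8 genes had an entry, with 8 windows in all. The E-box searched was CACGTG, which reads the same on both strands and was counted once. It was found in 3 of the 7 genes, against 7.15% of 32851 promoters and 8.093% of 27025 genes in the table. The windows that hold it are given below from 5′ to 3′ on the strand of the gene, with the E-boxes in capitals.
Ciart, minus strand, chr3:95882179-95882478: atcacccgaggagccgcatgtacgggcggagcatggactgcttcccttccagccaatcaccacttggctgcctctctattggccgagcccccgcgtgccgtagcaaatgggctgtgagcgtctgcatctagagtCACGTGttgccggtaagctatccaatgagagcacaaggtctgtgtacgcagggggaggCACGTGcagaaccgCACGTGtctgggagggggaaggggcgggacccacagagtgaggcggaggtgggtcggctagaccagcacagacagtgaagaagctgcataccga
Tef, plus strand, chr15:81802423-81802722: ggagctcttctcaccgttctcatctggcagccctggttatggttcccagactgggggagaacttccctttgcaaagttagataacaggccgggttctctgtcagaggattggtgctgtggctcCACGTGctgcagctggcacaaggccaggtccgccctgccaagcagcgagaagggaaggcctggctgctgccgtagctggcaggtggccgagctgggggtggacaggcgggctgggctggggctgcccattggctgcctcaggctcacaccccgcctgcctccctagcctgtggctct
Tef, plus strand, chr15:81811164-81811463: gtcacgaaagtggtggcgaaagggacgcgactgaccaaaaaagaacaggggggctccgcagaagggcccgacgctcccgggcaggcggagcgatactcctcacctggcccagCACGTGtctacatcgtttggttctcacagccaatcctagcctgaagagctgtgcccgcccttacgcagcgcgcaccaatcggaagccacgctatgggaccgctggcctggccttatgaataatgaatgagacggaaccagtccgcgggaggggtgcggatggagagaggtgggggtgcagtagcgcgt
Bhlhe41, minus strand, chr6:145865371-145865670: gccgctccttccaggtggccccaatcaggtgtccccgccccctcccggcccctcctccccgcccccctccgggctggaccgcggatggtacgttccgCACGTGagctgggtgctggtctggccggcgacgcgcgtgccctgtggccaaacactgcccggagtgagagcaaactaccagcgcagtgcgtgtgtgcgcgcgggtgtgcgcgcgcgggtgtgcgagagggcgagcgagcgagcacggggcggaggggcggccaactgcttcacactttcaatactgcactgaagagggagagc
Ciart held 3 E-boxes, whose first bases lie 116, 58 and 44 bases before the start site. Each of the 2 Tef windows held 1, in the first of them at 127 bases before its start, and the Bhlhe41 window held 1 at 153 bases before its start. The windows of Dbp, Hlf, Nfil3 and Usp2 held none of these letters. No window held a D-box (TTATGTAA or TTACGTAA, either strand, in 1.056% of all promoters) or a ROR element (AGGTCA preceded by AANT, either strand, in 0.219%). No 2 matches in these windows shared a base. A match describes the letters only.

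Libraries are named by their numbers in the labels. Totals ran from 25.8 to 33.02 (in units of 1e6 estimated counts) in heart and from 15.95 to 26.3 in adipose tissue. Levels are in CPM, counts per 1e6 TMM-scaled counts on 1 scale for all libraries. The tissues carried their own markers: 6 cardiomyocyte genes summed to at least 54186 CPM in each heart, and 6 white adipocyte genes to at least 5670 CPM in each adipose library. Some libraries stood apart. The GFP adipose library L140 held 5577 CPM of cardiomyocyte transcripts against 19.4 to 112.5 in the other adipose libraries, and the F11 adipose library L142 held 1391 CPM of testis and epididymis transcripts against at most 4.20 elsewhere. Hepatocyte transcripts reached 3491 CPM in L136, 978 in L137, 3262 in L145 and 1758 in L146, and 222 in the heart L2. Erythrocyte transcripts reached 3584 CPM in the heart L8 and 3042 in the heart L40. F11 itself had a median of 4.35 CPM (0.388 to 11.96) in adipose tissue with F11 and 0.359 CPM (0 to 3.50) with GFP, and a median of 0 in both heart groups.

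**Figure D1:**
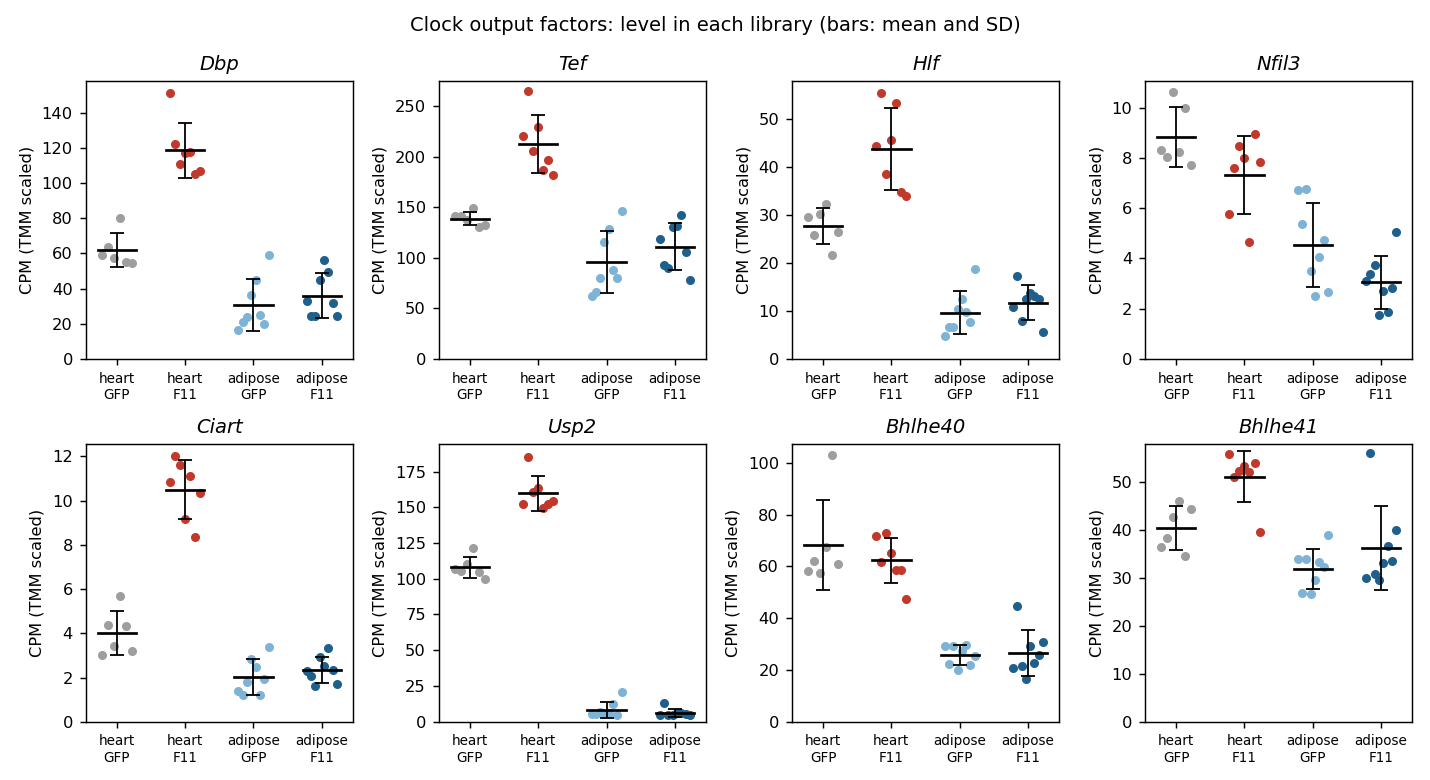
Level of each of the 8 genes (vertical axis, TMM-scaled CPM, starting at 0) in every library of the 4 groups (horizontal axis). Points are libraries, the long bar is the group mean and the error bar is the SD. Dbp, Tef, Hlf, Ciart and Usp2 in F11 hearts lie above every GFP heart, while the adipose groups overlap for all 8 genes.

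In heart, 5 of the 8 output factors were higher with F11 than with GFP and none was lower. Ciart, Dbp, Hlf, Tef and Usp2 rose by 1.48-fold to 2.62-fold. Over all 14684 genes tested, 0.518% were higher at the same threshold, an adjusted p under 0.05 in edgeR's quasi-likelihood test. The median log2 fold change was 0.58 over the 8 genes and -0.01 over all genes. For those 5 genes no F11 heart overlapped a GFP heart, a pattern found with F11 higher in 0.579% of genes tested.

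Dbp (ENSMUSG00000059824, chr7:45705088-45710203), a PAR bZIP activator often used as a marker of clock output, had a level of 54.6 CPM at the lowest, 58.3 at the median and 80.4 at the highest in GFP hearts. In F11 hearts its level was 105, 117 and 151 CPM on the same 3 measures. Every F11 heart was thus above the highest GFP heart, L6, and the groups were separated by more than the SD of either (61.7 ± 9.70 CPM, n = 6, against 119 ± 15.6 CPM, n = 7). Dbp was 1.92-fold higher with F11 (log2 fold change 0.94, SE 0.10, 95% confidence interval of the fold 1.65 to 2.23, adjusted p 0.000397).

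Tef (ENSMUSG00000022389, chr15:81802421-81826863), thyrotroph embryonic factor, had levels of 131, 139.04 and 149.7 CPM (lowest, median, highest) in GFP hearts. In F11 hearts they were 182, 206 and 265 CPM. The GFP hearts lay close together, with a coefficient of variation of 4.93%, and all 7 F11 hearts lay above them, spread more widely at 13.6%. Tef was 1.52-fold higher with F11 (log2 fold change 0.61, SE 0.07, adjusted p 0.000346).

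Hlf (ENSMUSG00000003949, chr11:90336536-90390895), hepatic leukemia factor, had levels of 21.7, 28.1 and 32.4 CPM in GFP hearts. In F11 hearts the levels were 34.0, 44.5 and 55.5 CPM, so the groups did not overlap, though the lowest F11 heart, L40, lay close to the highest GFP heart. Hlf was 1.58-fold higher with F11 (log2 fold change 0.66, SE 0.13, adjusted p 0.0284). Its call was the least firm of the 5: it was lost in 10 of 21 alternative settings, among them 7 of those that left out 1 heart (adjusted p 0.0506 to 0.0691 without L1, L2, L5, L8, L9, L33 or L36), and without the 3 hearts L2, L8 and L40 (0.0678).

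Nfil3 (ENSMUSG00000056749, chr13:52967209-52981073), the D-box repressor, had lower values with F11 than with GFP but did not pass the test. Its levels in GFP hearts were 7.73, 8.27 and 10.6 CPM. In F11 hearts they were 4.65, 7.82 and 8.94 CPM, and the groups overlapped, with L38 and L31 the lowest. The log2 fold change was -0.27 (SE 0.13, 95% confidence interval -0.55 to 0.01, unadjusted p 0.0574, adjusted p 0.417). The log2 ratio of Dbp to Nfil3, the activator over the repressor of D-boxes, averaged 2.81 over the GFP hearts (SD 0.32, n = 6) and 4.04 over the F11 hearts (SD 0.46, n = 7). The lowest ratio in an F11 heart, 3.56, exceeded the highest in a GFP heart, 3.29. Dbp alone already separated the groups, so this gap is not separate evidence about Nfil3.

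Ciart (ENSMUSG00000038550, chr3:95878503-95882251) had the largest fold of the 8. Its promoter window held the 3 E-boxes shown above, while that of Dbp, with the next largest fold, held none. The part of E-boxes in the folds was not tested. The levels of Ciart in GFP hearts were 3.03, 3.88 and 5.69 CPM. In F11 hearts they were 8.37, 10.9 and 12.03 CPM, and no library of 1 group fell in the range of the other. Ciart was 2.62-fold higher with F11 (95% confidence interval 2.16 to 3.18, log2 fold change 1.39, SE 0.13, adjusted p 7.04e-05). It rested on few counts, 61 to 117 in a GFP heart and 163 to 259 in an F11 heart, and its call held in all 21 alternative settings.

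Usp2 (ENSMUSG00000032010, chr9:44067021-44095627), the deubiquitinase, had the lowest p of all 14684 genes tested in heart. Its levels in GFP hearts were 99.7, 106 and 121 CPM. In F11 hearts they were 149.7, 154 and 185 CPM. The fold was modest but both groups were tight, with coefficients of variation of 6.74% and 7.67%. Usp2 was 1.48-fold higher with F11 (log2 fold change 0.56, SE 0.05, 95% confidence interval of the fold 1.37 to 1.59, adjusted p 6.96e-05).

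The related E-box repressors Bhlhe41 and Bhlhe40 did not pass the test. Bhlhe41 (ENSMUSG00000030256, chr6:145858243-145865558) had levels of 34.4, 40.5 and 46.0 CPM in GFP hearts and 39.4, 52.2 and 55.7 CPM in F11 hearts. In 6 of 7 F11 hearts it was above all GFP hearts, and L40 was the exception. The log2 fold change was 0.34 (SE 0.08, 95% confidence interval 0.17 to 0.51), with an adjusted p of 0.0593 that passed without L40 (0.00449), without L6 (0.0421), and with DESeq2 (0.00587) or limma voom (0.0210). Bhlhe40 (ENSMUSG00000030103, chr6:108660629-108666925) had levels of 57.5, 61.4 and 103 CPM in GFP hearts and 47.5, 61.5 and 72.8 CPM in F11 hearts. The medians were alike, and the highest value belonged to L8, the GFP heart with the most erythrocyte and the fewest atrial transcripts (52.3 CPM for 5 atrial genes). The log2 fold change of Bhlhe40 was -0.13 (SE 0.14, adjusted p 0.772), and it was 0.02 without L8.

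In the same hearts the 6 cardiomyocyte markers summed to 54186 to 58002 CPM with GFP and 62585 to 71597 CPM with F11, without overlap, and 1 of the 6 passed the test. The 4 mesothelial markers summed to 14.5 to 21.7 CPM with GFP and 6.73 to 14.0 CPM with F11, also without overlap, and none of the 4 passed. The part of either in the values of the output factors was not tested, and in bulk tissue fewer cells of a type and less RNA per cell cannot be told apart. The library numbers run in blocks by vector, so an order of handling that followed them cannot be told apart from the vector. The labels give no time of day, so an hour of collection that differed between vectors cannot be told apart from the vector either. When both tissues were fitted together, with a square root of the common dispersion of 0.309 against 0.105 in heart alone and 0.355 in adipose tissue alone, only Ciart of the 8 kept its heart call. In that fit the adjusted p was 0.162 for Dbp, 0.204 for Tef, 0.603 for Hlf and 0.939 for Usp2, with fold changes like those above.

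**Figure D2:**
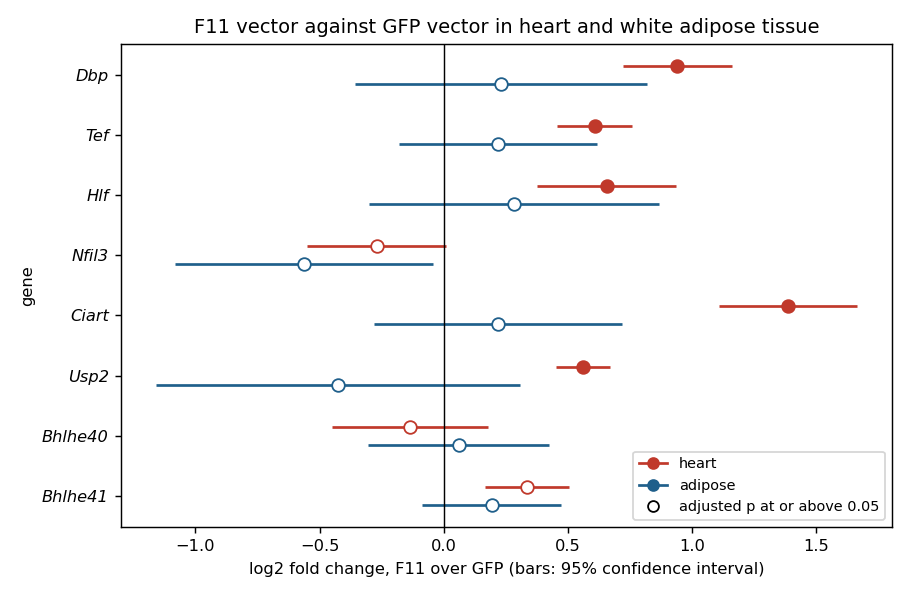
Log2 fold change of F11 over GFP (horizontal axis) for each gene (vertical axis) in heart and in white adipose tissue, with bars for the 95% confidence interval and filled points for an adjusted p under 0.05. The heart intervals of Dbp, Tef, Hlf, Ciart, Usp2 and Bhlhe41 lie above 0, and in adipose tissue only the interval of Nfil3 excludes 0.

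In white adipose tissue none of the 8 output factors passed the test, and 0.0% of the 15229 genes tested did (0 genes at the threshold, 638 at an unadjusted p under 0.05, 6 genes past the threshold with DESeq2, none of them among the 8). In all, 6 of the 8 had a positive log2 fold change, from 0.06 for Bhlhe40 to 0.28 for Hlf, and the groups overlapped for all 8. The coefficient of variation of Dbp was 48.0% with GFP and 34.9% with F11, against 15.7% and 13.2% in heart. Bhlhe40 did not share that order with GFP, at 14.9% in adipose tissue and 25.5% in heart.

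Dbp in adipose tissue ran from 16.5 CPM through a median of 24.4 to 59.1 with GFP, and from 24.2 through 32.6 to 56.5 with F11. The ranges lay largely on top of each other, and 6 of the 8 F11 values exceeded the GFP median. The log2 fold change was 0.23 (95% confidence interval -0.36 to 0.82). Tef ran from 61.9 through 84.0 to 146.1 CPM with GFP and from 78.4 through 112 to 142.4 with F11. Hlf ran from 4.75 through 8.80 to 18.9 CPM with GFP and from 5.68 through 12.5 to 17.4 with F11. For these activators the top GFP library was L140, the library with heart transcripts, and the top F11 value of Hlf was in L142, the one with epididymal transcripts. The log2 fold changes were 0.22 for Tef and 0.28 for Hlf, and without L140 and L142 they were 0.50 for Dbp, 0.36 for Tef and 0.38 for Hlf, with an adjusted p of at least 0.834 for each. Without the adipose libraries rich in hepatocyte transcripts they were 0.16 for Dbp, 0.25 for Tef and 0.31 for Hlf, with an adjusted p of 0.9993 for each. Other settings moved them by over 1.5 times both ways. They were lower without L133 (0.14 for Dbp, 0.14 for Tef, 0.18 for Hlf), for Dbp without L145 (0.11) and for Hlf without L142 (0.17). They were higher without L140 alone (0.44, 0.33 and 0.49) and with limma voom (0.58, 0.46 and 0.53).

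In adipose tissue Nfil3 alone among the 8 had an unadjusted p under 0.05. Its levels with GFP were 2.52, 4.39 and 6.74 CPM. With F11 they were 1.75, 2.97 and 5.07 CPM, and 7 of 8 F11 libraries were below the GFP median. The log2 fold change was -0.56 (95% confidence interval -1.08 to -0.04, unadjusted p 0.0355), and it did not survive the adjustment over all genes (adjusted p 0.9996).

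Ciart in adipose tissue had levels of 1.19, 1.87 and 3.36 CPM with GFP and 1.63, 2.31 and 3.34 CPM with F11, a log2 fold change of 0.22 (95% confidence interval -0.28 to 0.72) on only 30 to 87.7 counts a library. Bhlhe40 had levels of 20.1, 26.3 and 29.8 CPM with GFP and 16.6, 24.2 and 44.9 with F11. Bhlhe41 had levels of 26.5, 32.7 and 38.8 CPM with GFP and 29.5, 33.3 and 55.9 with F11. In both of these repressors the top F11 value came from L142, and without L140 and L142 the log2 fold change of Bhlhe40 went from 0.06 to -0.10 and that of Bhlhe41 from 0.19 to 0.11. Ciart ran from 0.13 without L146 to 0.50 with limma voom.

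Usp2 in adipose tissue had levels of 4.48, 5.83 and 20.96 CPM with GFP and 4.41, 5.20 and 12.8 with F11. In 3 libraries it stood above the rest: L140 at 20.96, L142 at 12.8 and L138 at 12.3 CPM, while the other 13 lay between 4.41 and 6.61. L140 and L138 were also the adipose libraries with the most cardiomyocyte transcripts, 5577 and 112.5 CPM, and L142 the one with epididymal transcripts. The part of those transcripts in the Usp2 level was not tested. The log2 fold change was -0.42 (95% confidence interval -1.16 to 0.31). Single libraries moved it in opposite directions, to -0.07 without L140 and -0.68 without L142, and it was -0.32 without both.

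The F11 effect was then compared between tissues with the interaction term of 1 model over the 4 groups. None of the 8 genes passed, against 0.0242% of 16526 genes tested. Ciart came nearest, with a heart effect larger by 1.17 on the log2 scale (SE 0.29, 95% confidence interval 0.58 to 1.77, unadjusted p 0.000373, adjusted p 0.210). With DESeq2 the Ciart difference passed (adjusted p 0.00688). The difference was 0.99 for Usp2 (95% confidence interval 0.22 to 1.77, adjusted p 0.479) and 0.72 for Dbp (0.04 to 1.39, adjusted p 0.629), each with an unadjusted p under 0.05. Of the 16526 genes tested, 1228 had an unadjusted p under 0.05 for this difference. Without L140 the difference was 0.62 for Usp2, and it was 0.35 for Dbp with limma voom and 0.43 without L140 and L142. For Tef, Hlf, Nfil3, Bhlhe40 and Bhlhe41 the interval of the difference included 0, and with limma voom the differences of Tef (0.40) and Hlf (0.38) came to 0.15 and 0.09. The heart rise of Dbp, Tef, Hlf, Ciart and Usp2 is therefore not shown by this test to differ from the adipose values.

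All 8 output factors were higher in heart than in adipose tissue with GFP, where 36.8% of genes tested were, and all 8 again with F11, where 36.6% were. These comparisons share their libraries with the vector comparisons above. Mitochondrial transcripts took 31.6 to 34.6% of the counts in heart libraries and 3.89 to 11.1% in adipose libraries. All 8 calls held with each vector when mitochondrial genes were left out. The median log2 difference over all genes was -0.11 with GFP and -0.13 with F11, so the rise of the 8 was against a slight shift the other way. Usp2 differed most between tissues, 13.2-fold with GFP (95% confidence interval 8.84 to 19.8) and 26.4-fold with F11 (17.4 to 39.9). With GFP, Hlf was 2.90-fold, Bhlhe40 2.70-fold, Dbp 2.03-fold, Ciart 2.00-fold, Nfil3 1.97-fold, Tef 1.47-fold and Bhlhe41 1.28-fold higher in heart, with adjusted p-values of at most 0.00715. The groups did not overlap for Usp2, Hlf, Bhlhe40 and Nfil3, a pattern found with heart higher in 4673 of 16526 genes tested. For Dbp a single adipose library, L140, reached into the heart range. Of the loop genes used as references, Arntl was also higher in heart with GFP (log2 1.04, adjusted p 0.000573), and Per2 was lower (log2 -1.01, adjusted p 0.000221). With F11 neither passed: Arntl had a log2 difference of -0.41 (5.05 CPM in heart, 6.82 in adipose tissue, adjusted p 0.136) and Per2 one of 0.20 (29.1 and 25.7 CPM, adjusted p 0.378).

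Levels of different genes were compared per kilobase of mean transcript length. In GFP hearts Tef was the most abundant at 97.9 ± 4.82 CPM per kb (SD, n = 6), followed by Usp2 at 66.5 ± 4.48 CPM per kb. Dbp at 45.5 ± 7.14 and Bhlhe40 at 41.5 ± 10.6 CPM per kb did not differ beyond their spread. Bhlhe41 at 15.99 ± 1.84 and Hlf at 13.2 ± 1.81 CPM per kb were neighbours with touching spreads, and Nfil3 at 4.35 and Ciart at 4.24 CPM per kb were indistinguishable. In GFP adipose tissue Tef again led at 67.5 CPM per kb, followed by Dbp at 22.7, Bhlhe40 at 15.6 and Bhlhe41 at 12.6, while Usp2 stood at 5.09, Hlf at 4.62, Nfil3 at 2.24 and Ciart at 2.14 CPM per kb. The order depends on the length used: per kilobase of all exons together Usp2 led in GFP hearts at 22.4 CPM per kb, before Dbp at 20.6, Tef at 17.7 and Bhlhe40 at 14.5, so the leading 4 were the same genes in another order. Bhlhe41 followed at 6.00, Nfil3 at 4.35, Hlf at 4.15 and Ciart at 1.77 CPM per kb on that measure. Per kilobase of the longest transcript Dbp led in GFP hearts at 33.6 CPM per kb, before Tef at 31.5, Usp2 at 27.9 and Bhlhe40 at 21.9.

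In adipose tissue Tef, Hlf, Ciart and Nfil3 varied with Dbp among libraries of 1 vector, and Usp2, Bhlhe40 and Bhlhe41 did not do so beyond the threshold. Log2 levels were centred on each vector group, and Dbp was related to 7 genes of the set and to Arntl in each tissue, 8 relations a tissue with p-values adjusted over them. In adipose tissue (16 libraries) Dbp rose and fell with Tef (r = 0.958, rho = 0.938, permutation p 1e-05, the smallest that 100000 resamples can give, adjusted p 4e-05). The relation held within GFP (r = 0.974) and within F11 libraries (0.932), and without the 2 libraries farthest from the median, L140 and L145 (0.959). Ciart followed Dbp (r = 0.838, rho = 0.765, permutation p 0.0002, adjusted p 0.0004), with 0.836 within GFP, 0.852 within F11 and 0.821 without the 2 farthest. Hlf followed too (r = 0.766, rho = 0.8, permutation p 0.0009, adjusted p 0.00144), more closely within GFP (0.948) than within F11 (0.481), with 0.664 without the 2 farthest and 0.876 without L140 and L142.

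Nfil3 ran opposite to Dbp in adipose tissue (r = -0.862, rho = -0.894, permutation p 5e-05, adjusted p 0.000133), with -0.912 within GFP, -0.799 within F11 and -0.918 without the 2 farthest libraries. Arntl, the driver of the loop, ran opposite more tightly still (r = -0.973, rho = -0.965, permutation p 1e-05, adjusted p 4e-05), with -0.975 within GFP, -0.981 within F11 and -0.960 without the 2 farthest. From L133, the library with the least Dbp (16.5 CPM) and the most Arntl (12.6 CPM), to L140, with the most Dbp (59.1 CPM) and the least Arntl (3.11 CPM), the log2 ratio of Dbp to Arntl went from 0.40 to 4.25. In F11 adipose tissue that ratio ran from 1.14 to 4.16. With L140 kept, every F11 ratio lay below its 4.25. Without L140, which holds heart transcripts, the highest GFP ratio was 3.19 in L137, and the F11 libraries L144, L146 and L145 lay above it at 3.30, 3.48 and 4.16. L137, L146 and L145 held 978, 1758 and 3262 CPM of hepatocyte transcripts, whose part in the ratio was not tested. The hour of collection is not given, and its part in these ratios was not tested.

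Usp2 (r = 0.385, rho = 0.488, permutation p 0.181, adjusted p 0.242), Bhlhe40 (r = -0.235, rho = -0.209, permutation p 0.363, adjusted p 0.415) and Bhlhe41 (r = -0.116, rho = -0.212, permutation p 0.669, adjusted p 0.669) were not related to Dbp in adipose tissue beyond the threshold. Their r without the 2 farthest libraries was 0.001, -0.412 and -0.367, and within GFP and F11 it was 0.637 and -0.107 for Usp2, -0.108 and -0.360 for Bhlhe40, and 0.191 and -0.366 for Bhlhe41.

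The summed level of 4 macrophage markers moved with Dbp in the same adipose libraries, a relation added after the values were seen. It ran from 385 CPM in L140 to 2421 CPM in L148 and fell as Dbp rose (r = -0.754, rho = -0.706, permutation p 0.00123, adjusted p 0.00369 over 3 marker relations), with -0.871 within GFP, -0.605 within F11 and -0.586 without the 2 farthest. The hepatocyte sum (r = 0.523, rho = 0.447, permutation p 0.0399, adjusted p 0.0598, 0.303 within GFP, 0.782 within F11, 0.725 without the 2 farthest) and the white adipocyte sum (r = 0.318, rho = 0.318, permutation p 0.222, adjusted p 0.222, 0.129 within GFP, 0.512 within F11, 0.535 without the 2 farthest) did not pass. The part of macrophage content in the Dbp relations was not tested.

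**Figure D3:**
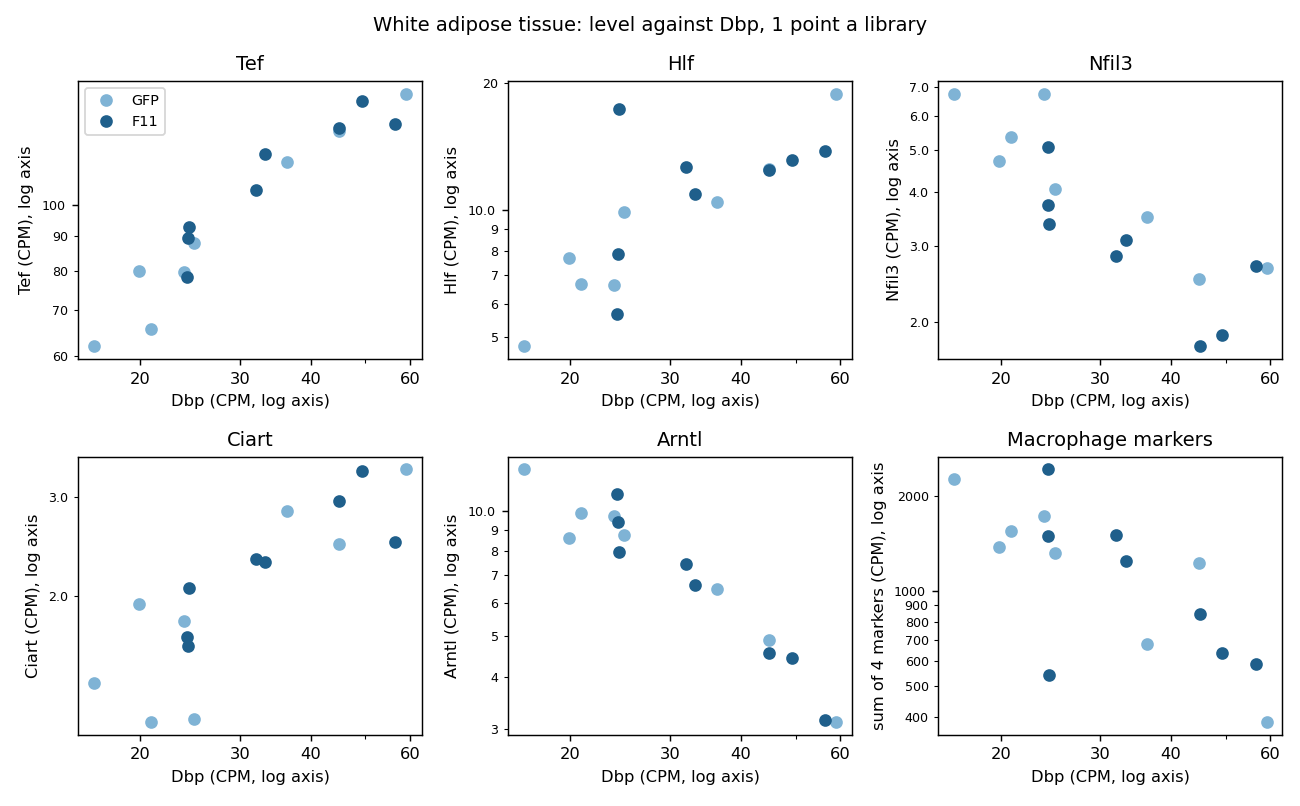
Level of Tef, Hlf, Nfil3, Ciart, Arntl and the sum of 4 macrophage markers (vertical axes, CPM, log scale) against the level of Dbp (horizontal axes, CPM, log scale) in the 16 adipose libraries, 1 point a library, by vector. Tef, Hlf and Ciart rise with Dbp, and Nfil3, Arntl and the macrophage sum fall. The F11 library L142 stands apart for Hlf, at 17.4 CPM with Dbp at 24.4 CPM.

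In heart (13 libraries) no relation passed after adjustment, and the libraries of a group spread over a narrower range. Ciart had the largest r (r = 0.626, rho = 0.599, permutation p 0.0322, adjusted p 0.163, 0.794 within GFP, 0.364 within F11, 0.450 without the 2 farthest libraries, L31 and L6). On rho Tef came nearest (rho = 0.698, permutation p 0.00935, adjusted p 0.0748), and its r was 0.925 within GFP, 0.435 within F11 and 0.613 without the 2 farthest. Tef (0.509), Hlf (0.525), Usp2 (0.445), Nfil3 (-0.444) and Arntl (-0.470) had the sign of their adipose values, with adjusted p 0.163 for each. Bhlhe41 (0.475, adjusted p 0.163) and Bhlhe40 (0.159, adjusted p 0.583) had the opposite sign. Whether the relations differ between tissues was not tested.

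Over the libraries of a tissue, the genes most like the mean of centred Dbp, Tef and Hlf were named by a rule, with no test, since genes of 1 library share its depth and composition. In adipose tissue (16 libraries, 14093 genes) they were Per3 (r = 0.976), a period gene of the loop, 1810043G02Rik (0.972), Mical3 (0.967), Insr (0.958), which encodes the insulin receptor, and Xpc (0.947), a DNA damage sensor. In heart (13 libraries, 13459 genes) they were Rarb (0.925), a retinoic acid receptor, A130010J15Rik (0.921), Abl1 (0.891), Cry2 (0.889), a cryptochrome of the loop, and Lamp2 (0.862). The genes most like Nfil3 were Gen1 (0.963), Ostc, Nfasc, Sars and Hspa8 (0.927) in adipose tissue and Kcmf1 (0.915), Twnk, Wdr5, Zcchc10 and Magix (0.880) in heart. No gene stood in both tissues' lists.

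The other genes of the pathway were counted by lists chosen by function. In heart, 3 of the 7 genes of the activator arm fell with F11: Arntl (log2 -1.68, adjusted p 0.000139), Npas2 (-1.05, 0.00577) and Clock (-0.40, 0.00167), and none rose. Over all genes tested, 0.354% were lower at that threshold. The level of Arntl was 16.2 ± 2.30 CPM over the 6 GFP hearts and 5.05 ± 1.37 CPM over the 7 F11 hearts (mean ± SD) without overlap, the reverse of Dbp in the same hearts. The median log2 fold change of the list was -0.23, against -0.01 over all genes.

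In the repressor arm 3 of 8 genes rose in heart, against 0.518% of all genes tested: Per2 (log2 1.32, adjusted p 0.000815), Per3 (0.64, 0.0260) and Cry2 (0.40, 0.00111). All 8 values were positive, with a median of 0.28 against -0.01 over all genes. Nr1d2, which encodes a REV-ERB repressor of Arntl and Nfil3, had a value of 0.25 (adjusted p 0.0664). None of the 8 clock regulators tested, kinases and ubiquitin ligase parts among them, passed in heart, and their median was -0.01. Among those with the lowest p were Csnk1e (0.12), Sirt1 (-0.08) and Fbxw11 (-0.02).

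Of 9 genes described as D-box targets, 5 passed the filter in heart. Against 0.518% of all genes tested in heart, 1 of the 5 rose. That gene was Pdxk, the pyridoxal kinase, with an adjusted p of 0.00224 and a log2 fold change of 0.37 (SE 0.06). Alas1, the entry enzyme of haem synthesis, had 0.45 (adjusted p 0.350), Por 0.09 (0.471) and Ppara 0.13 (0.690). All 5 values were positive, with a median of 0.19 against -0.01 over all genes. Of 11 other clock-controlled outputs 1 rose, against the same 0.518%: Wee1, a kinase that holds back mitosis (log2 0.59, adjusted p 0.0118). Pik3r1 (0.56), Tspan4 (0.34) and Coq10b (0.32) each had an adjusted p of 0.0614. None of 5 CEBP factors, bZIP proteins with related sites, passed, and Cebpa (-0.42, adjusted p 0.0883), Ddit3 (0.21), Cebpb (0.40) and Cebpd (-0.49) had the lowest p.

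In adipose tissue no gene of any of the 6 lists passed. The medians lay between -0.08 for the D-box targets, 8 of which were tested, and 0.11 for the repressor arm. Among the genes with the lowest p were Npas2 (-0.37) and Arntl2 (0.17) in the activator arm, Per1 (0.47) and Per3 (0.37) in the repressor arm, Btrc (0.14) among the regulators, Fgf21 (0.41) and Alas1 (-0.08) among the D-box targets, Coq10b (-0.09) and Leo1 (-0.14) among the other outputs, and Cebpb (-0.19) and Ddit3 (-0.15) among the CEBP factors, each with an adjusted p of 0.9996.

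**Figure D4:**
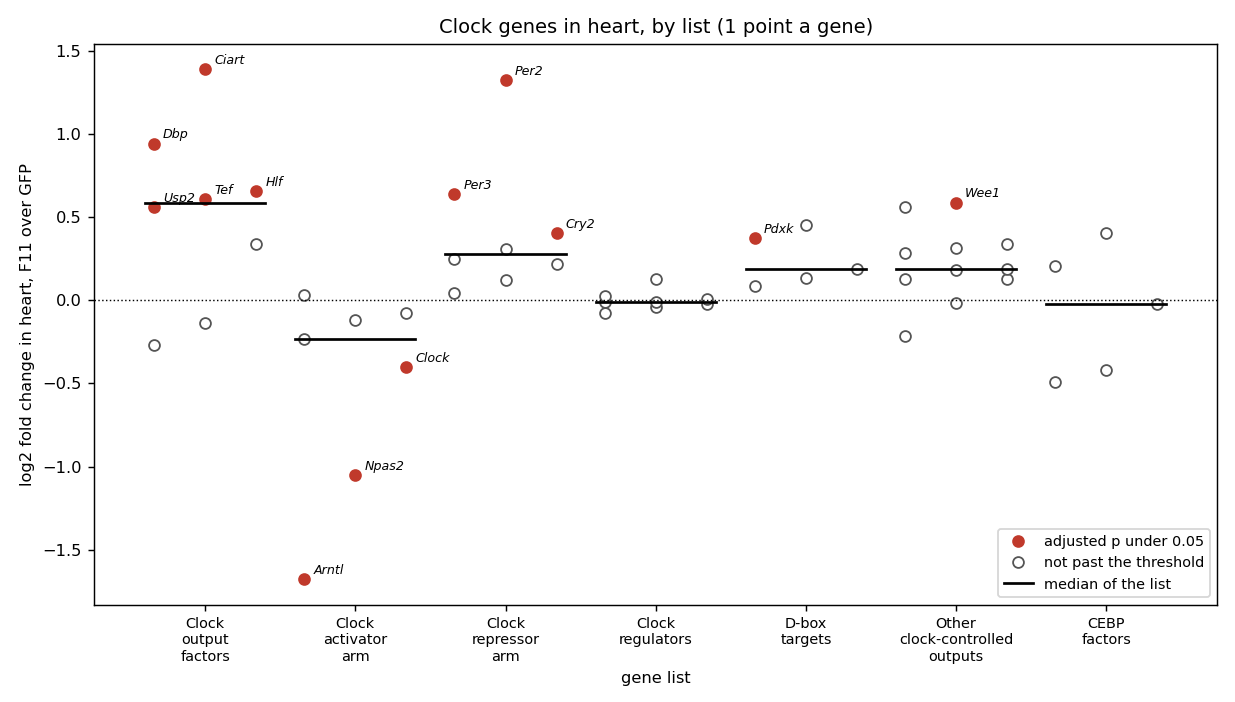
Log2 fold change of F11 over GFP in heart (vertical axis) for the 8 output factors and the genes tested of 6 other lists (horizontal axis), 1 point a gene, with filled points and names for an adjusted p under 0.05 and a bar for the median. Ciart, Dbp and Per2 lie highest and Arntl and Npas2 lowest.

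Several of the 8 genes overlap another gene in the annotation: Dbp overlaps Sphk2 on the opposite strand, Usp2 overlaps Gm39325 and Gm49380, Tef overlaps Gm17597, Ciart overlaps C920021L13Rik, Bhlhe40 overlaps 0610040F04Rik and Bhlhe41 overlaps Gm43909. The overlaps are between whole gene spans, and whether the exons of a pair overlap was not examined. No strand setting is given in the sources used here, so reads from any shared exon sequence cannot be told apart with certainty. Hlf and Nfil3 overlap no other gene.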

How the data were processed

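Per the labels' protocols, libraries were made from total RNA with a Nugen mRNA kit and read on a NovaSeq. The authors deposited estimated counts per Ensembl gene, made with kallisto 0.46 on GRCm38.p6 per the submitters' processing notes and not scaled to library size. The annotation release, the step from transcripts to genes and any strand setting were not given in the sources used here. Of 36558 IDs, 35856 were named and placed with GENCODE (GRCm38), and 30.8% of values were not whole (within 1e-06).

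Groups came from the sample titles. The labels name 30 libraries and 29 were analysed; the GFP heart L10 was not analysed here. Within groups, every 2 libraries differed by more than counting noise (chi-square over its degrees of freedom at least 3.36), so each counted once. Depth was 15.95 to 33.02 (in units of 1e6 counts) a library, which limits genes with few counts, such as Ciart and Nfil3.

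Estimated counts were rounded and tested with edgeR 4.0.16 in R 4.3.3: filterByExpr, TMM scaling and the robust quasi-likelihood test, two-sided, Benjamini-Hochberg adjusted over all genes tested, threshold 0.05, each tissue apart. The difference between tissues and the heart against adipose contrasts came from 1 model over the 4 groups. Relations used log2 CPM (prior count 2) centred on vector groups, with 100000 permutations within vector groups. The scripts were tested on simulated data. Genes named are the 8 output factors, from each list up to 4 with the lowest p in heart and up to 2 in adipose tissue, and the 5 most alike; 2 list genes that this rule names are not reported here. DESeq2 1.42.0 and limma 3.58.1 served as alternatives. The output factors, lists and tests were chosen with earlier results of these data known, and the libraries left out for transcripts of other tissues were chosen after seeing the data.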

Additional observations from a re-analysis of the deposited data

Results flagged for a closer look

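In 7 of 32 groups of a gene's values, 1 library lay farther from its group than Dixon's 95% critical value allows, and chance marks about 1 in 20 groups. Dbp stood out at 80.4 CPM in the GFP heart L6, where the other GFP hearts lay between 54.6 and 63.7. Dbp also stood out at 151 CPM in the F11 heart L31, where the others lay between 105 and 122. Usp2 reached 185 CPM in the F11 heart L33, against 149.7 to 163 in the others, and 12.8 CPM in the F11 adipose library L142, against 4.41 to 6.28. Bhlhe40 reached 103 CPM in the GFP heart L8, against 57.5 to 67.6. Bhlhe41 was low at 39.4 CPM in the F11 heart L40, against 50.9 to 55.7, and high at 55.9 CPM in L142, against 29.5 to 39.9. L142 also held 1391 CPM of testis and epididymis transcripts, L8 3584 and L40 3042 CPM of erythrocyte transcripts. The part of those transcripts in the values was not tested.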

How the results depend on the processing

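No paired analysis was possible because each library has a number of its own, shared with no other group. The labels do not say whether heart and adipose libraries share mice, and the tests between tissues treated all libraries as independent. The heart count of 128 genes became 377 with DESeq2, 196 with limma voom and 30 with both tissues in 1 fit, and ranged from 87 to 179 when 1 library was left out. The heart count of 5 output factors became 1 with both tissues in 1 fit and ranged from 4 to 6 when 1 library was left out. It stayed at 5 without L2, L8 and L40, with Bhlhe41 in and Hlf out. In adipose tissue 0 genes became 6 with DESeq2 and 4 with both tissues in 1 fit, and none of the 8 passed in any setting. For the difference of effects, 4 genes became 2 without a filter, 172 with DESeq2, 24 with limma voom and 9 without L140 and L142, and 1 to 6 when 1 library was left out. The count of output factors there became 1 (Ciart) with DESeq2. Only Bhlhe40, which passed no vector test, changed direction. Its log2 fold change in heart ran from -0.1785 to 0.0236 when 1 library was left out, the latter without L8, and was 0.0853 without L2, L8 and L40. In adipose tissue it was -0.0882 with limma voom, ran from -0.1046 (without L142) to 0.1357 when 1 library was left out, and was -0.1022 without L140 and L142. As a difference of effects it was 0.047 with limma voom and 0.0342 without L2, L8 and L40. The cause of these changes was not tested. All 8 calls of heart over adipose tissue held in 39 alternatives with each vector. The 5 relations of Dbp in adipose tissue held in the fewer settings run for them. Those were a prior count of 0.5, RLE in place of TMM scaling, and L140 and L142 left out. The relations were not rerun with each library left out in turn. Of 64 levels per kilobase under other transcript lengths, 52 moved by more than 1 SD. Ciart and Nfil3 in adipose tissue rest on 30 to 198 counts a library, and intervals there are wide.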
